A study of Caenorhabditis elegans with 3 samples.

Results

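The cytosolic ribosomal protein genes of Caenorhabditis elegans were examined for binding of DRAP-1. They were taken by name from the Ensembl WBcel235 gene models, as every protein-coding gene called rpl, rps or rla followed by a number. This gave 81 of 19973 protein-coding genes, 50 of the large subunit (with the 3 stalk genes rla-0, rla-1 and rla-2) and 31 of the small subunit. By name rpl-24.2 belongs to them, although RefSeq calls its product a putative ribosome biogenesis protein, and the RefSeq product of rpl-42 is described by another domain. The names were not corrected for this. Several Ensembl names differ from those of RefSeq, and both are given where they matter.

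The series holds 1 group of 3 biological replicates, numbered 2, 3 and 4, of mixed-stage embryos of strain OP700 collected by egg bleaching. Both sexes were pooled, and the labels give the age as 3 hours. The strain carries the integrated transgene wgIs700, in which drap-1 is fused to TY1, EGFP and 3xFLAG and unc-119(+) is the marker, in an unc-119 (tm4063) background. It is 1 transgenic line, the labels name no other genotype or treatment, and whole embryos were used, so a site cannot be assigned to a cell type. Chromatin was immunoprecipitated with an antibody to GFP and sequenced (ChIP-seq). The labels do not say whether the untagged drap-1 gene is still present, and the embryos' stages were mixed.

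DRAP-1 is a subunit of NC2 (negative cofactor 2), a heterodimer with DR1 that binds the TATA-binding protein on promoter DNA. In yeast and human systems NC2 hinders the entry of TFIIA and TFIIB, and it also acts positively at some promoters. Ribosomal proteins assemble with ribosomal RNA into the subunits that carry out translation, and their genes are among the most highly transcribed in growing cells and embryos. In C. elegans many transcripts are trans-spliced: the piece between the transcription start and a splice acceptor, called the outron, is replaced by a spliced leader, so that the annotated 5′ end of a gene can lie downstream of its true start of transcription.

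Each replicate had a deposited list of 30000 candidate regions, and so had the pooled replicates. A further list held the 1468 regions that passed the irreproducible discovery rate (IDR), a filter based on comparing how regions rank in replicates. A gene was called bound when the summit, the point of highest signal in an IDR region, lay within 500 bp of its annotated 5′ end. A rank is the place of a region in its list by signal, with 1 the strongest. At every bound ribosomal protein gene the region had the same rank in the IDR list as in the pooled list. The strongest candidate of an unbound one had pooled rank 1533. A call therefore goes with a high pooled signal and does not show that the region ranked alike in every replicate. Read depth was not given in the sources used here, and the scale of the signal is not stated, so ranks rather than signals were compared between lists. Ranks in equally long lists are relative and show no absolute occupancy.

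DRAP-1 summits lay near 32 of the 81 ribosomal protein genes (39.5%, exact Clopper-Pearson 95% interval 28.8 to 51.0%), against 3.75% of all protein-coding genes. The interval covers counting error over genes only. The count depends on the rule: with a window of 250 bp 9 genes were called (2.12% of all coding genes). Keeping only peaks that were also among the 1468 highest regions of both remaining replicates, it was 21 without replicate 2 (2.16%), 20 without replicate 3 (2.05%) and 20 without replicate 4 (2.05%). The IDR list was made from all 3 replicates and was not remade for these counts. The 32 genes were reached by 31 distinct peaks, because rpl-24.1 and rps-10 share 1 between them. A candidate region in the pooled list lay near 75 of the 81 genes, against 6247 of all 19973 protein-coding genes. Of those 75 genes 42.7% were bound, against 12.0% of all protein-coding genes with a candidate. The median rank of the best pooled candidate was 1744 for ribosomal protein genes and 11289 for all protein-coding genes that had one.

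The same difference was seen in each replicate on its own. With the 1468 highest regions of each list, the share of ribosomal protein genes reached was 35.8% in replicate 2 (3.41% of all coding genes), 33.3% in replicate 3 (3.39%) and 33.3% in replicate 4 (3.48%). The mean was 34.2% ± 1.43 for ribosomal protein genes and 3.30% ± 0.0467 for all other coding genes (SD, n = 3 replicates). The difference of 30.9 ± 1.45 percentage points had the same sign in 3 of 3 replicates and was many times larger than its spread. Its exact two-sided sign-flip permutation p was 0.25, the smallest that 3 replicates can give.

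**Figure D1:**
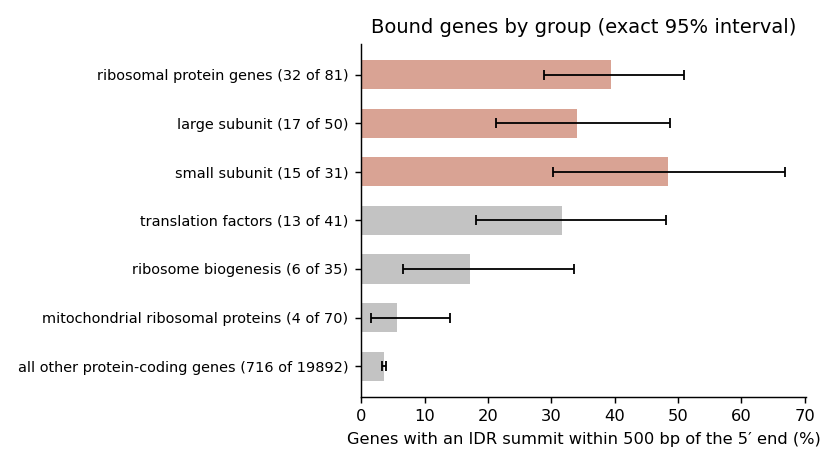
Share of genes with an IDR summit within 500 bp of the annotated 5′ end, in percent, for ribosomal protein genes, their subdivisions and the other gene lists, with exact 95% intervals. All ribosomal protein genes are at 39.5% and other coding genes at 3.6%, and the intervals of the large and small subunit overlap.

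Both subunits were represented. Summits lay near 17 of 50 large-subunit genes (34.0%, 95% interval 21.2 to 48.8%) and 15 of 31 small-subunit genes (48.4%, 30.2 to 66.9%), a difference of -14.4 percentage points, large minus small. In the replicates the share of large-subunit genes was 30.0, 32.0 and 26.0%, and that of small-subunit genes was 45.2, 35.5 and 45.2%. The difference by replicate was -15.2, -3.48 and -19.2 percentage points, with a mean of -12.6 ± 8.15 (SD, n = 3 replicates; exact two-sided sign-flip permutation p = 0.25, the smallest possible). The share was lower for the large subunit in 3 of 3 replicates, and the intervals of the 2 shares overlap. Counting only summits nearest to the gene's own 5′ end gave 9 large-subunit and 5 small-subunit genes, and the difference turned to 1.87 points.

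The stalk genes were not bound. The ribosomal stalk is the flexible part of the large subunit that recruits translation factors. The count was 0 of 3, with an upper 95% limit of 70.8%. Their best pooled candidates ranked 17468 for rla-0 (RefSeq rplp-0), 4637 for rla-1 and 21506 for rla-2. With 3 genes the share is not distinguishable from that of the other large-subunit genes.

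**Figure D2:**
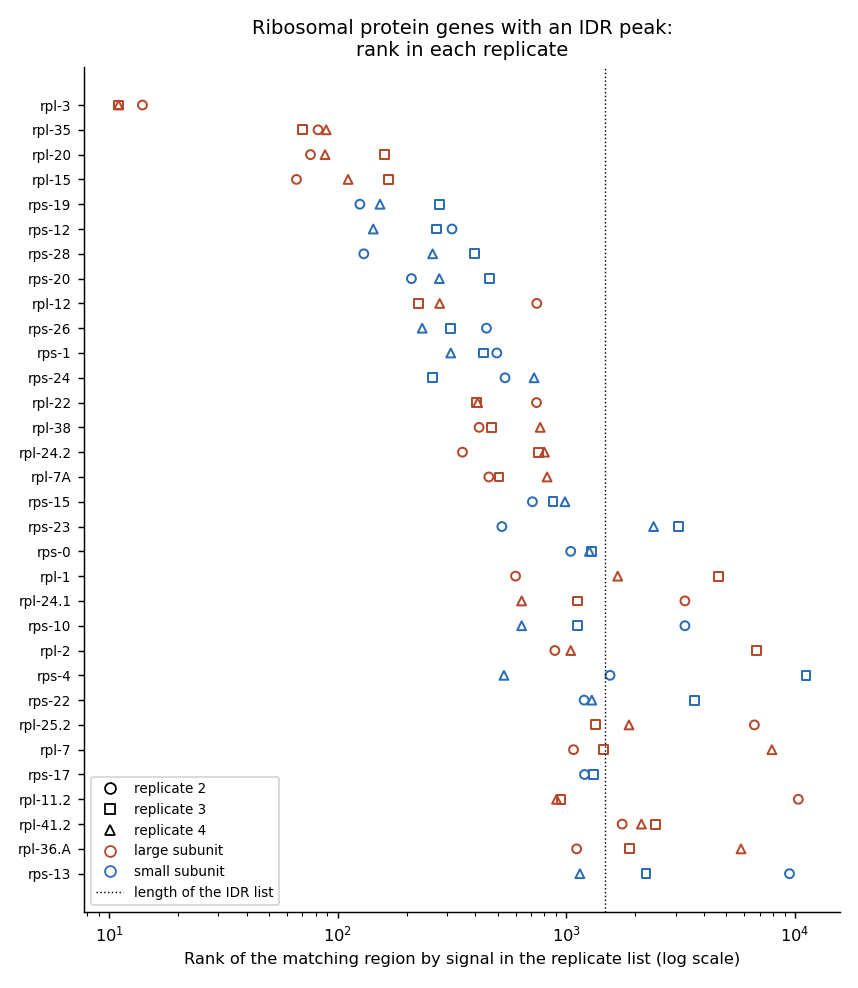
Rank of the matched region in replicates 2, 3 and 4 (log axis, 1 is the strongest) for each bound ribosomal protein gene, ordered by pooled signal, with circles, squares and triangles for the replicates, red for the large and blue for the small subunit. The line marks rank 1468, and rpl-3 sits near rank 11 in every replicate.

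The strongest peak of a ribosomal protein gene belonged to rpl-3, which encodes uL3, a protein that reaches towards the peptidyl transferase centre. Its pooled signal was 882.5, the 12th of the IDR list, and its region ranked 14, 11 and 11 in replicates 2, 3 and 4. The summit lay 268 bp upstream of the 5′ end. The median signal of the bound ribosomal protein genes was 200.6, against 174.1 for all IDR peaks, whose lowest was 126.7. Only rpl-3 and rpl-35 were among the 100 strongest IDR peaks.

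The summit windows of 4 large-subunit and 3 small-subunit genes with strong peaks found in every replicate are shown, from 50 bases before to 50 after the pooled summit, in the direction of the gene, so that their base composition and shared letters can be read. They were read from the RefSeq WBcel235 genome, which is the ce11 build of the lists. Capitals mark the words CGAGTGT and TACGGTA, described further on. The windows are chrIII:3867536-3867636 on the plus strand for rpl-3, chrIII:7854629-7854729 on the plus strand for rpl-35, chrIV:4750017-4750117 on the minus strand for rpl-20, chrIV:654876-654976 on the minus strand for rpl-15, chrIII:5679087-5679187 on the plus strand for rps-12, chrIV:1659203-1659303 on the plus strand for rps-28 and chrIII:4475603-4475703 on the plus strand for rps-1.
rpl-3: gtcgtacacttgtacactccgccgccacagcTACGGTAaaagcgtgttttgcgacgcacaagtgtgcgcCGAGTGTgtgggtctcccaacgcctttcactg
rpl-35: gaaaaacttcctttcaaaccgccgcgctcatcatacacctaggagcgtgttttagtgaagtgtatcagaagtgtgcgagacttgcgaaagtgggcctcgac
rpl-20: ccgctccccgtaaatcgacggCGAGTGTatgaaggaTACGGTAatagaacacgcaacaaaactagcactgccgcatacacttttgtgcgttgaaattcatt
rpl-15: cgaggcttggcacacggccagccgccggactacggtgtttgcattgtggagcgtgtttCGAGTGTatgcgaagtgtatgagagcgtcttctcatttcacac
rps-12: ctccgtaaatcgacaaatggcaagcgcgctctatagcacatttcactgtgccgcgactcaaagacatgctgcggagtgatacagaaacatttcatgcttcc
rps-28: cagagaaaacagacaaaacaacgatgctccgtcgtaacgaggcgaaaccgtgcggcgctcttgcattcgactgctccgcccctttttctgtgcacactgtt
rps-1: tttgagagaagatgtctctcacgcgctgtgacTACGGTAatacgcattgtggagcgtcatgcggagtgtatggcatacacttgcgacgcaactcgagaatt

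The windows were not A+T rich. The A+T share was 42.6% at rpl-3, 50.5% at rpl-35, 53.5% at rpl-20 and 51.5% at rps-12. Over all bound ribosomal protein genes the median was 50.5% (31.7 to 60.4%), close to 49.5% at the summits of other bound coding genes and 48.5% at all IDR summits. TATAAA, searched on both strands, was found in 1 of the 31 windows (3.23%) and in 3.65% of the windows of other bound coding genes. In the 500 bp before the 5′ end it was found for 54.3% of ribosomal protein genes and 54.0% of other coding genes.

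After rpl-3 the 4 strongest large-subunit genes were rpl-35, rpl-20, rpl-15 and rpl-12. rpl-35, which encodes uL29 at the rim of the nascent peptide exit, had a signal of 526.0 and ranks of 82, 70 and 89, with the summit 455 bp upstream. rpl-20 (RefSeq rpl-18A, eL20) had a signal of 458.1 and ranks of 76, 160 and 88, with the summit 289 bp upstream. rpl-15, which encodes eL15 of the large subunit, had a signal of 455.1 and ranks of 66, 166 and 111, with the summit 350 bp upstream. All 4 genes named so far were high in every replicate. rpl-12, which encodes uL11 at the base of the stalk, had a signal of 276.6 and ranks of 742, 226 and 279. Its summit lay 14 bp upstream, the nearest of all.

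The 5 strongest small-subunit genes all had lower signals than rpl-15, and 4 of them had higher signals than rpl-12. rps-19 encodes eS19, needed in human cells for maturation of the small-subunit RNA, and had a signal of 366.4 with ranks of 125, 278 and 153. rps-12, which encodes eS12, had a signal of 337.1 with ranks of 316, 271 and 143. rps-28 encodes eS28, near the mRNA exit channel, and had a signal of 317.4 with ranks of 130, 397 and 260. All 3 ranked well inside the 1468 highest regions of each replicate. rps-20 (uS10) had a signal of 290.3 and ranks of 210, 459 and 278, and rps-26 (eS26), also at the mRNA exit channel in yeast, had a signal of 266.2 and ranks of 447, 312 and 234. Their summits lay 292 bp upstream for rps-19, 161 bp for rps-12, 438 bp for rps-28, 248 bp for rps-20 and 392 bp for rps-26.

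A middle group was also present among the 1468 highest regions of every replicate. rps-1 (RefSeq rps-3A, eS1) had a signal of 246.4 and ranks of 496, 433 and 312, with the summit 265 bp upstream. rps-24 had a signal of 243.0 and ranks of 539, 259 and 722, with the summit 317 bp upstream. rpl-22, whose product binds RNA, had a signal of 229.0 and ranks of 740, 404 and 409, with the summit 263 bp upstream. The order of these genes differed between replicates. rpl-38 (eL38) had a signal of 226.0 and ranks of 415, 471 and 768, with the summit 346 bp upstream. rpl-24.2, the biogenesis factor by RefSeq, had a signal of 211.4 and ranks of 351, 753 and 801, with the summit 168 bp upstream. rpl-7A (eL8) had a signal of 200.6 and ranks of 458, 507 and 823, with the summit 33 bp upstream. For these 3 genes replicate 4 gave the weakest place. rps-15 (uS19) had a signal of 191.8 and ranks of 710, 873 and 985, with the summit 395 bp upstream. rps-0 (RefSeq rpsa-1, uS2) had a signal of 163.6 and ranks of 1044, 1290 and 1260, with the summit 304 bp upstream.

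The remaining 14 bound genes were not found among the 1468 highest regions of every replicate, and their ranks scattered widely. rps-23, which encodes uS12 at the decoding centre, had a signal of 173.9, a summit 284 bp upstream and ranks of 522, 3086 and 2405. rpl-1 (RefSeq rpl-10a), which encodes uL1 of the stalk at the tRNA exit site, had a signal of 152.6, a summit 242 bp upstream and ranks of 599, 4638 and 1676. rpl-2 (RefSeq rpl-8, uL2) had a signal of 140.3, a summit 410 bp upstream and ranks of 890, 6755 and 1044. In these genes replicate 2 gave the highest place. rps-4 had a signal of 138.7, a summit 297 bp upstream and ranks of 1551, 11165 and 533. rps-22 (RefSeq rps-15A) had a signal of 138.1, a summit 60 bp upstream and ranks of 1195, 3620 and 1291. rpl-7 (uL30) had a signal of 133.8, a summit 327 bp upstream and ranks of 1074, 1456 and 7912. Here a single replicate stood apart from the other pair. rps-17 had a signal of 132.9, a summit 304 bp upstream and ranks of 1200 and 1308 in replicates 2 and 3, with no match in replicate 4. rpl-36.A (eL42) had a signal of 128.7, a summit 271 bp upstream and ranks of 1108, 1887 and 5798. rps-13 (uS15) had a signal of 127.7, a summit 213 bp upstream and ranks of 9449, 2227 and 1145. These signals lie just above the lowest of the IDR list. rpl-25.2 had a signal of 137.4, a summit 164 bp upstream and ranks of 6635, 1345 and 1878. rpl-11.2, a copy of uL5, which binds 5S ribosomal RNA, had a signal of 131.9, a summit 379 bp upstream and ranks of 10326, 947 and 905. rpl-41.2 had a signal of 130.5, a summit 260 bp upstream and ranks of 1753, 2443 and 2128, all outside the 1468 highest. The shared peak of rpl-24.1 and rps-10 had a signal of 145.4 and ranks of 3297, 1119 and 637.

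In all, 18 of the 32 bound genes (56.2%) were found among the 1468 highest regions of every replicate, beside 45.6% of all bound coding genes. 9 of the 18 were large-subunit and 9 small-subunit genes. A further 7 were found in 2 replicates, 6 in 1 and rpl-41.2 in none. Within 100 bp of the pooled summit a region was present in the full replicate lists in 95 of 96 cases. The pooled summits come from these same replicates, each list holds 30000 regions, and this share was not counted for all bound coding genes. The median distance between the replicate and the pooled summit was 10 bp and the largest 93 bp, where the matching rule allowed at most 100 bp. Over the 58 members with a candidate in every replicate, Spearman's rho of the best ranks was 0.70 for replicates 2 and 3. It was 0.71 for replicates 2 and 4, and 0.74 for replicates 3 and 4. This is a correlation across genes, which are not independent replicates.

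**Figure D3:**
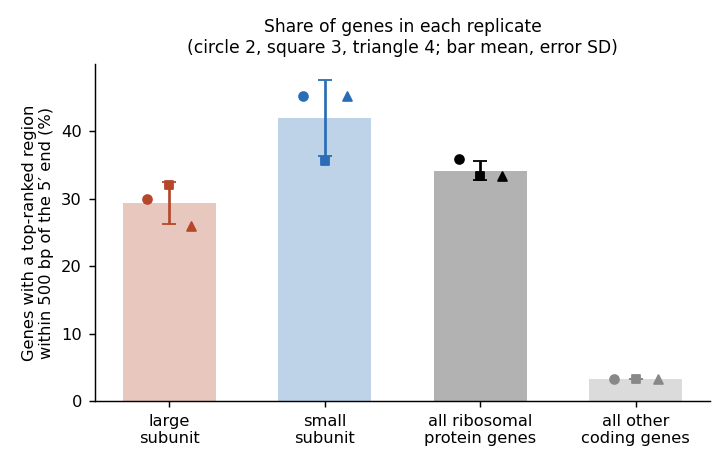
Per replicate, the share of ribosomal protein genes and of other coding genes (in percent) with 1 of the 1468 highest regions within 500 bp, and the same for the large and the small subunit, with a mark per replicate, bars at the mean and error bars of 1 SD. Ribosomal protein genes are between 33.3 and 35.8% in every replicate and other coding genes between 3.27 and 3.36%.

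The summits stood upstream of the genes. All 32 lay before the annotated 5′ end, against 87.6% of the strongest summits of all bound coding genes. Their median distance was -286.5 bp (quartiles -346.5 and -246.5, range -455 to -14), where a negative value is upstream, and that of other bound coding genes was -192 bp. Between 200 and 400 bp upstream lay 23 of the 32 (71.9%), against 40.1% for other bound coding genes. The median was -268 bp for large-subunit and -297 bp for small-subunit genes.

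The same measure was taken in each replicate. From their own 1468 highest regions the median distance was -299, -289 and -299 bp for ribosomal protein genes (mean -296 ± 5.77, SD, n = 3), and -189, -183 and -187 bp for other coding genes (mean -186 ± 3.06). All 29 summits in replicate 2, 26 of 27 in replicate 3 and all 27 in replicate 4 were upstream. No IDR summit lay inside a ribosomal protein gene (0 of 81), which is near the low share of all coding genes that had one, 2.17%. A candidate of the pooled list lay inside 35 of the 81 genes, and that share was not counted for all coding genes. Ribosomal protein genes are short, with a median length of 754 bp, against 2034 bp for other coding genes.

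**Figure D4:**
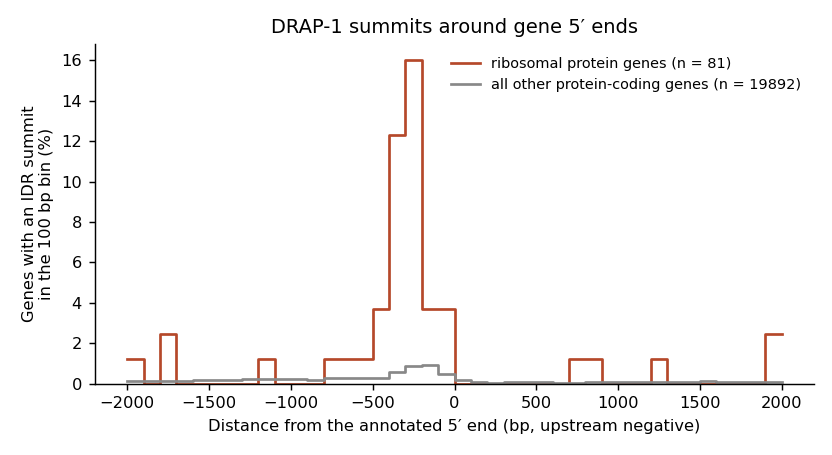
Share of genes with an IDR summit in each 100 bp bin, by distance from the annotated 5′ end in bp (negative is upstream), for ribosomal protein genes and other coding genes. The bin from -300 to -200 holds a summit of 13 of 81 ribosomal protein genes and of 0.865% of other coding genes.

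The annotated 5′ ends themselves differ between the groups. An AG, the dinucleotide of a splice acceptor, stood directly before the 5′ end of 69 of 81 ribosomal protein genes (85.2%), against 27.4% of other coding genes. The longer TTNCAG stood there in 75.3% and 18.8%. The median distance from the 5′ end to the start codon was 8 bp in ribosomal protein genes and 15 bp in others. Whether each transcript is trans-spliced was not measured in these files.

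Summit distance differed with the kind of 5′ end. The 27 bound genes with the AG had summits between -455 and -161 bp, with a median of -289 bp. The 5 without it were rpl-12 (-14 bp), rpl-7A (-33 bp), rps-22 (-60 bp), rps-24 (-317 bp) and rpl-38 (-346 bp). The 3 nearest summits were thus all at genes without the AG, and all 3 genes have a divergent coding neighbour. Among other bound coding genes the median was -245 bp with the AG (288 genes) and -143.5 bp without it (428 genes), in the same direction. The share of genes bound was similar, 39.1% of ribosomal protein genes with the AG and 41.7% of those without (95% intervals 27.6 to 51.6% and 15.2 to 72.3%).

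Examples of both kinds of 5′ end, chosen after their values were seen, are given as 24 bases before the annotated 5′ end and 7 from it on, in the direction of the gene, from the RefSeq WBcel235 genome. Capitals mark the last 2 bases before the 5′ end. The stretches are chrIII:3867830-3867860 on the plus strand for rpl-3, chrIII:5679274-5679304 on the plus strand for rps-12, chrIV:654570-654600 on the minus strand for rpl-15, chrIV:13240645-13240675 on the minus strand for rpl-12, chrIV:4390584-4390614 on the minus strand for rpl-7A, chrIII:1950511-1950541 on the plus strand for rps-22, chrIV:385863-385893 on the plus strand for rps-24 and chrV:15512142-15512172 on the plus strand for rpl-38. The last 5 are all bound genes without the AG, of which rps-24 and rpl-38 have distant summits. At rps-24 the first 7 bases from the annotated 5′ end on end in AG themselves, so its place in this group depends on where the 5′ end is annotated.
rpl-3: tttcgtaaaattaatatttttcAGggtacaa
rps-12: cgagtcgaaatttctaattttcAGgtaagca
rpl-15: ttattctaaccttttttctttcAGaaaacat
rpl-12: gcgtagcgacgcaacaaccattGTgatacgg
rpl-7A: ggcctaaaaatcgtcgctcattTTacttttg
rps-22: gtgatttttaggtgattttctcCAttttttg
rps-24: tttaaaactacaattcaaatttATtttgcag
rpl-38: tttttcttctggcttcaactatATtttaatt

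**Figure D5:**
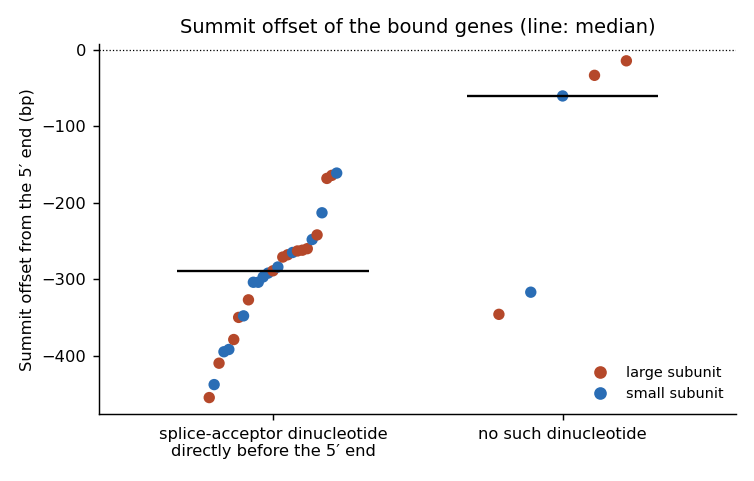
Distance of the summit from the annotated 5′ end in bp (negative is upstream) for bound ribosomal protein genes with and without the splice-acceptor dinucleotide directly before the 5′ end, colored by subunit, with lines at the medians. The 27 genes with it lie between -455 and -161 bp, and 3 of the 5 without it lie within 60 bp.

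Many summits lay between a ribosomal protein gene and another gene. The 5′ end nearest to the summit was the gene's own in 14 of 32 cases (43.8%), against 61.1% of all bound coding genes. By the stricter rule that the own 5′ end be nearest, 14 of 81 ribosomal protein genes (17.3%) were called, against 2.29% of all coding genes. For 8 bound genes another coding gene was nearer, for 7 an unclassified ncRNA gene, for 2 a piRNA gene and for 1 a lincRNA gene. None was nearest to a tRNA, snoRNA or snRNA gene. These other classes were not counted for all bound coding genes, so no difference from them can be read here.

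The nearer coding genes were divergent partners. They were Y17G9B.5 at rpl-20, hsr-9 at rps-19, ska-3 at rps-12, ekl-4 at rps-20, tmem-107 at rps-26, ify-1 at rpl-22, F36A2.9 at rps-15 and dpm-3 at rps-23. The summit lay 132 bp from the 5′ end of ska-3 and 161 bp from that of rps-12, and 65 bp from tmem-107 and 392 bp from rps-26. In a peak list such a summit cannot be assigned to 1 of the 2 promoters. Of the 32 bound genes, 19 (59.4%) had a peak that was also within 500 bp of another coding 5′ end, against 42.2% of all bound coding genes.

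Of all ribosomal protein genes, 48 of 81 (59.3%) had a divergent coding neighbour within 1000 bp, against 17.5% of other coding genes. Of these 48 genes 22 were bound (45.8%), and of the other 33 genes 10 were bound (30.3%), with overlapping 95% intervals of 31.4 to 60.8% and 15.6 to 48.7%. Among other coding genes 9.40% with such a neighbour and 2.37% without one were bound. In both arrangements the share was higher for ribosomal protein genes than for other coding genes.

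3 pairs of divergent genes join a large-subunit to a small-subunit gene. rpl-24.1 and rps-10 have their 5′ ends 610 bp apart and share the bound summit, 262 bp upstream of rpl-24.1 and 348 bp upstream of rps-10. rpl-39 and rps-30 (RefSeq fau-1), 499 bp apart, share a candidate of pooled rank 1606, just outside the IDR list, with ranks of 966, 4224 and 11428 in the replicates. rpl-36 and rps-14, 663 bp apart, share a candidate of pooled rank 3025.

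For 3 genes the nearest 5′ end was that of an unclassified ncRNA almost at the summit. F56F3.11 lay 4 bp from the summit of rps-1, B0393.12 lay 3 bp from that of rps-0 and Y71F9AL.19 lay 4 bp from that of rpl-1. No tRNA or snRNA 5′ end lay within 500 bp of a bound summit. A snoRNA 5′ end did so for 5 genes, at 126 bp for rps-26, 241 bp for rps-12, 315 bp for rpl-7A and 396 bp for the shared summit of rpl-24.1 and rps-10. Such noncoding neighbours were not counted for all bound coding genes. A consensus of the B box and 1 of the A box, the elements of tRNA promoters used by RNA polymerase III, were found on either strand in none of the 31 summit windows. They were found in 1.74% and 0.174% of the windows of other bound coding genes.

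Ribosomal protein genes often carry snoRNA genes in their introns, which guide modification of ribosomal RNA. A snoRNA gene lay inside 13 of the 81, against 0.9% of other coding genes. Bound were 9 of these 13 hosts (69.2%, 95% interval 38.6 to 90.9%) and 23 of the other 68 (33.8%, 22.8 to 46.3%), so the intervals overlap. The gap was smaller in the replicates' own 1468 highest regions, which reached 48.7% ± 4.44 of hosts and 31.4% ± 2.25 of the others (SD, n = 3). Bound and found in every replicate were 3 of 13 hosts (23.1%) and 15 of the other 68 genes (22.1%). The bound hosts were rpl-2, rpl-7, rpl-7A, rpl-15, rpl-24.1, rps-4, rps-12, rps-13 and rps-23, and the others were rpl-4, rpl-6, rpl-26 and rps-29. Among other coding genes with a snoRNA gene inside, 11.7% were bound.

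2 words of 7 letters recurred at the bound summits. They were picked after seeing the windows, as those with the largest excess among 2092 words, so their counts there are a description and no test. ACACTCG, or CGAGTGT on the other strand, was in 10 of 31 windows (32.3%) and in 3.13% of those of other bound coding genes. TACCGTA, or TACGGTA, was in 10 of 31 (32.3%) and in 3.83%. Both words stood together in 7 windows, among them those of rpl-3 and rpl-20 shown above.

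The genes that were not bound give a separate look at these words. CGAGTGT was in 6 of 41 best candidate windows of unbound ribosomal protein genes (14.6%), against 0.722% of those of other unbound coding genes. TACGGTA was in 2 of 41 (4.88%), against 1.97%. Within the 500 bp before the 5′ end CGAGTGT was found in 6 of 49 unbound ribosomal protein genes (12.2%) and in 2.55% of other coding genes. TACGGTA was found there in 5 of 49 (10.2%) and in 7.18%. A match describes letters only and is not evidence of a binding site.

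Of the 49 genes that were not bound, 43 had a pooled candidate within 500 bp, as had 6247 of all 19973 protein-coding genes, bound or not. For these 43 genes its median rank was 5566 (1533 to 29367). 11 of them ranked up to 2936, that is within 2 times the length of the IDR list. The weakest bound gene, rps-13, stood at rank 1439 of the IDR list, and the nearest unbound one, rpl-14, at pooled rank 1533. rpl-9 followed at 1595, rpl-39 and rps-30 with their shared candidate at 1606, rps-29 at 1728 and rpl-6 at 1744. After them came rpl-5, which encodes uL18 and binds 5S ribosomal RNA, at 1753, rpl-29 at 1820, rpl-28 at 2136, rpl-4 at 2250 and rpl-33 at 2400. A further 18 ranked between there and 10000, and 14 ranked lower, down to rpl-18 at 29367.

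No candidate of the pooled list lay near 6 genes, rpl-10, rpl-37, rps-2, rps-3, rps-8 and rps-18. They include core proteins of both subunits, such as uL16 of rpl-10 and uS3 of rps-3 at the mRNA entry channel. A gene with no candidate may still have had signal under the list's own limit. An IDR summit beyond 500 and up to 1000 bp away was present for 5 of the 49 unbound genes (10.2%), against 1.48% of all coding genes with none within 500 bp. It lay at -507 bp for rps-11, -601 bp for rps-18, -756 bp for rpl-43, 729 bp for rpl-27 and 842 bp for rpl-41.1. The summit counted for rpl-41.1 is the bound summit of its neighbour rpl-41.2, so that peak was already among those of the bound genes. rps-11 had regions of rank 1260, 2069 and 526 within 500 bp in the replicates, so its call turned on a few bp.

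The paralogous copies did not share a state in several cases. rpl-11.2, rpl-25.2 and rpl-41.2 were bound, whereas the best pooled candidate ranked 3711 for rpl-11.1, 8163 for rpl-25.1 and 7833 for rpl-41.1. The bound copies were all weak, with signals of 131.9, 137.4 and 130.5, and each was found in 2 replicates or fewer. rpl-41.1 and rpl-41.2 are neighbours on the same strand of chromosome I, and the bound summit lies between them, nearest to rpl-41.2. Both rpl-24.1 and rpl-24.2 were bound, from separate peaks. rpl-36.A was bound and rpl-36 was not, and both rpl-7 and rpl-7A were bound, but RefSeq gives these pairs different products. Whether reads were split between copies was not tested, and how reads with several matches were treated is not given in the sources used here.

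The bound genes were spread over the chromosomes. The share was 12 of 25 genes on chromosome I (48.0%), 7 of 18 on chromosome III (38.9%), 8 of 18 on chromosome IV (44.4%), 2 of 10 on chromosome II (20.0%), 2 of 8 on chromosome V (25.0%) and 1 of 2 on the X chromosome. Other coding genes on these chromosomes were bound in 4.63, 4.50, 3.34, 3.11, 2.87 and 3.92% of cases, in each case a lower share. The 95% intervals for ribosomal protein genes included the share of other genes on chromosome II (2.52 to 55.6%) and on X (1.26 to 98.7%). No difference can be read on these 2. From the highest regions of replicate 2 the share on X was 0.0%, against 3.37% of other coding genes.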

How the data were processed

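Per the texts deposited with the samples, the lists were made on build ce11 and 2 control files were named. Not given in the sources used here are the aligner, the threshold of the IDR filter, and which program called peaks. The deposited lists give a signal per region, with no scale stated, a −log10 q-value and a summit position. They comprise 4 candidate lists of 30000 regions and the IDR list of 1468. Only the signal and the summit were used for the results. The signal was used as rank in every list, and also as a value within the pooled and IDR lists.

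Genes came from Ensembl release 115 (WBcel235), with RefSeq product names paired by WormBase ID. Members matched rpl, rps or rla and a number, and rpl-36.A, spelled with a point, was added after the files were seen. All bound members, the stalk genes and those without candidates were named, and paralogs were compared. Members and lists were chosen with earlier results of these data known. A summit was assigned to every gene with a 5′ end within 500 bp, and a replicate region matched a pooled summit within 100 bp. Intervals are exact Clopper-Pearson 95% intervals and cover counting error only. Replicates were compared with exact two-sided sign-flip permutation tests. Python 3.11.15, NumPy 2.4.6, pandas 2.3.3, SciPy 1.17.1 and Matplotlib 3.10.9 were used, and the assignment was tested on simulated data. Apart from the sign-flip tests over replicates, no gene list was tested for enrichment.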

Additional observations from a re-analysis of the deposited data

How the results depend on the processing

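Of 83 alternative values, 55 stayed within 1.5 times the count or the spread between replicates, 27 moved and 1 changed sign. With a 250 bp window 9 genes were bound, 5 large-subunit and 4 small-subunit, a difference of -2.90 percentage points, with a median summit distance of -164 bp, 5 summits nearest to the own 5′ end, 5 genes found in every replicate, an A+T share of 51.5% and a mean share per replicate of 9.47%. That share was 37.0% with a 1000 bp window and 46.5% with 2 times as many regions per replicate. Measured from the start codon the median distance was -298 bp. Using only the nearest gene left 14 bound genes, 9 large-subunit and 5 small-subunit, and turned the difference to 1.87 points. IDR peaks above the median signal left 17, 9 and 8. With 100 bases on each side of the summit the A+T share was 56.7%. Leaving out 1 replicate in turn kept a peak only if found in both others, and so was stricter by construction. The IDR list, made from all 3 replicates, was not remade. The replicate left out therefore still shaped the counts, distances and A+T shares, which do not show independence from it. It left 20 to 21 bound genes, 10 to 11 large-subunit and 10 small-subunit, a difference of -12.3 to -10.3 points. The median distance was -298 to -290.5 bp, with 9 to 10 summits nearest to the own 5′ end. The A+T share was 50.5 to 51.0% and the mean share 33.3 to 34.6%. The 20 to 21 genes found in every replicate consulted are the bound genes themselves by construction, yet these counts are among the 55. Also among the 55 are the values without peaks at tRNA, snoRNA and snRNA genes, none of which changed. No bound summit was nearest to such a gene. Leaving out rpl-36.A, chosen after seeing the data and computed for the count of bound genes only, gave 31. Read depth was not given, so the precision of a single peak is not known. No comparison between groups of samples, paired or not, was possible because the series holds 1 group. The sign-flip tests used differences between gene lists within each replicate.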

Other observations

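Other genes of the translation machinery were compared by the same rule, with lists chosen by name. Summits lay near 13 of 41 translation factor genes (31.7%, exact 95% interval 18.1 to 48.1%), against 3.75% of all protein-coding genes. That interval overlaps the 28.8 to 51.0% of ribosomal protein genes. Of translation factor genes with a pooled candidate 41.9% were bound, against 42.7% of such ribosomal protein genes. A high share was thus not particular to ribosomal protein genes. The own 5′ end was nearest for 11 of the 13 bound translation factor genes and 14 of the 32 bound ribosomal protein genes. The strongest were iff-2 (signal 451.0, ranks 208, 68 and 131 in replicates 2, 3 and 4), which encodes eIF5A, and eif-3.C (419.5), a subunit of the initiation factor eIF3. Next came a pair of genes for the elongation factor that delivers tRNA, eef-1A.2 with 230.3 and eef-1A.1 with 228.8. Over the 13 bound translation factor genes the median summit distance was -207 bp, against -286.5 bp for ribosomal protein genes. No test was made of the difference.

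Of 35 ribosome biogenesis genes found of 38 names, 6 were bound (17.1%, 6.56 to 33.6%), against 3.75% of all protein-coding genes. fib-1, which encodes fibrillarin, the methylase of box C/D snoRNPs, had the highest signal (440.6, ranks 77, 126 and 121), followed by rpoa-12 (221.6), nog-1 (193.8) and rbd-1 (161.1). Mitochondrial ribosomal protein genes were bound in 4 of 70 cases (5.71%), against 3.75% of all protein-coding genes. The exact 95% interval of the 5.71% began at 1.58% and included the 3.75%, so no difference can be read. The 4 genes were mrpl-39 (signal 150.9), mrps-35 (144.2), mrps-7 (142.6) and mrpl-45 (127.7). None of them was found among the 1468 highest regions of every replicate. The ubiquitin fusion genes ubl-1 and ubq-2, whose products hold a ribosomal protein, were not bound (0 of 2).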
